A study of Mus musculus with 32 samples.

Results

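A set of 150 cDNA clones was described. Their heavy minus light polysome difference was positive in every state of cell line and serum that the study held. They came from 15169 clones that had a value in every column (0.989% of them). For each clone the difference between the heavy and the light fraction (F), between the cell lines (C) and between the serum states (S) was taken from group means, each averaged over its 4 matched strata. Clones were kept where F was larger in size than both C and S, which left 6983, and these were ranked by the smallest of their 4 single-state heavy minus light values. The 150 highest were taken. The smallest value was 1.84 or more for the 2 highest clones, 1.06 for the last 2 inside the list and 1.05 for the first 2 outside it. Another 5 clones had a smallest value above that of the last clone in the list but a larger cell line or serum difference. Because the measured values chose the list, its heavy minus light values are a description only. The calls given for them below carry no support.

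A transcript that is being translated carries a row of ribosomes, and a sucrose gradient separates such polysomes by weight, so that well loaded transcripts sediment in the heavy fractions and those with few ribosomes in the light ones. eIF4E binds the cap at the 5′ end of messenger RNA and recruits the factors that bring in the small ribosomal subunit. It is limiting for many growth-related transcripts, and its overexpression transforms NIH 3T3 cells, an immortal line of mouse fibroblasts. Serum withdrawal lowers growth factor signalling, which among other effects frees the 4E-BP proteins to bind eIF4E.

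The 8 groups were NIH3T3 and 4E cells, each basal or serum stressed, and each as a light pool (gradient fractions 4 to 6) and a heavy pool (fractions 7 to 10). 4E cells are an NIH 3T3 derivative that ectopically overexpresses eIF4E, basal means complete growth medium, and serum stressed means 16 h without serum. Every array of the NIH 15k mouse cDNA collection carried the same competitor, an unfractionated poly(A) RNA from NIH 3T3 in growth medium. How the 4E line was selected, and whether it is a single clone, is not given in the sources used here.

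Each group had 4 deposited columns, which formed 2 pairs by title number, 1 with 2 and 3 with 4. Within a pair the same column held the higher or an equal value at every complete clone, so a pair was averaged to 1 sample, called sample 1 or sample 2 of its group, which gave 16 samples. Whether samples 1 and 2 of a group were grown separately is not stated in the labels, and every p-value measures the spread between these samples, which may be technical. Sample 2 of the 4E heavy serum stressed group stood apart, with r = 0.329 at the median over the other samples and a median absolute deviation of 0.739, against 0.465 to 0.682 in the other samples. The 2 control rows of the table held values in the NIH3T3 basal and 4E serum stressed samples and were empty in the NIH3T3 serum stressed and 4E basal samples. Each serum comparison within a line and each cell line comparison within a serum state crosses that split, and the split and the comparison cannot be told apart there. F, C and S averaged over their strata are balanced over it.

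Values are log ratios against the common reference, taken as log2, with each column's median set to 0. This centring holds the medians over all clones near 0 in every comparison below. The direction of the ratio is not given in the sources used here, so a positive value on this scale does not by itself mean more RNA in the polysome sample. No table used here pairs the clone IDs with genes (0 of the IDs were found in the RefSeq gene table), so clones are named by ID, the markers of fibroblasts and the level of eIF4E itself could not be checked, and no sequence is shown. In an ID such as H3059E05 the 3 digits after H3 are the library plate, and the last letter and number are the well.

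Clone H3059E05 ranked first. In the heavy fraction it stood at 0.99 and 1.04 in NIH3T3 basal, 1.29 and 1.34 in NIH3T3 serum stressed, 0.69 and 0.44 in 4E basal, and 1.13 and 1.95 in 4E serum stressed samples. In the light fraction the same states gave -0.41 and -1.48, -0.91 and -1.04, -1.54 and -1.46, and -0.85 and -1.0. All 8 heavy samples lay above 0 and all 8 light samples below it, and the lowest heavy values were those of 4E basal cells. The 4 single-state differences were 1.96 (NIH3T3 basal), 2.29 (NIH3T3 serum stressed), 2.07 (4E basal) and 2.46 (4E serum stressed).

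Clone H3052A04, the second in rank, behaved much like it. Its heavy samples stood at 0.89 and 1.14, 1.45 and 1.06, 0.59 and 0.40, and 1.31 and 1.94 in the same order of states, and its light samples at -0.60 and -1.05, -0.47 and -1.09, -1.67 and -1.04, and -0.71 and -0.93. The fractions did not overlap, at 1.10 ± 0.49 in the heavy and -0.94 ± 0.37 in the light samples (SD, n = 8 each). Its smallest difference, 1.84, was that of NIH3T3 basal cells, and 4E basal cells were close to it at 1.85.

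Over the 150 clones the averaged heavy minus light difference ran from 1.18 to 2.20, with a median of 1.49 and quartiles of 1.37 and 1.63. The median was 1.52 in NIH3T3 basal, 1.49 in NIH3T3 serum stressed, 1.42 in 4E basal and 1.54 in 4E serum stressed cells, beside 0.01, 0.03, 0.01 and 0.00 over all clones. No state supplied the smallest value for most of them: 4E basal did for 48 clones, NIH3T3 serum stressed for 36, NIH3T3 basal for 34 and 4E serum stressed for 32. Within a clone the largest and the smallest of the 4 differences lay 0.464 apart at the median and 1.10 at most, whereas over all clones the median gap was 0.75. Ranking by the smallest value draws a list towards small gaps but sets no limit on them, so the gaps are a description only.

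**Figure D1:**
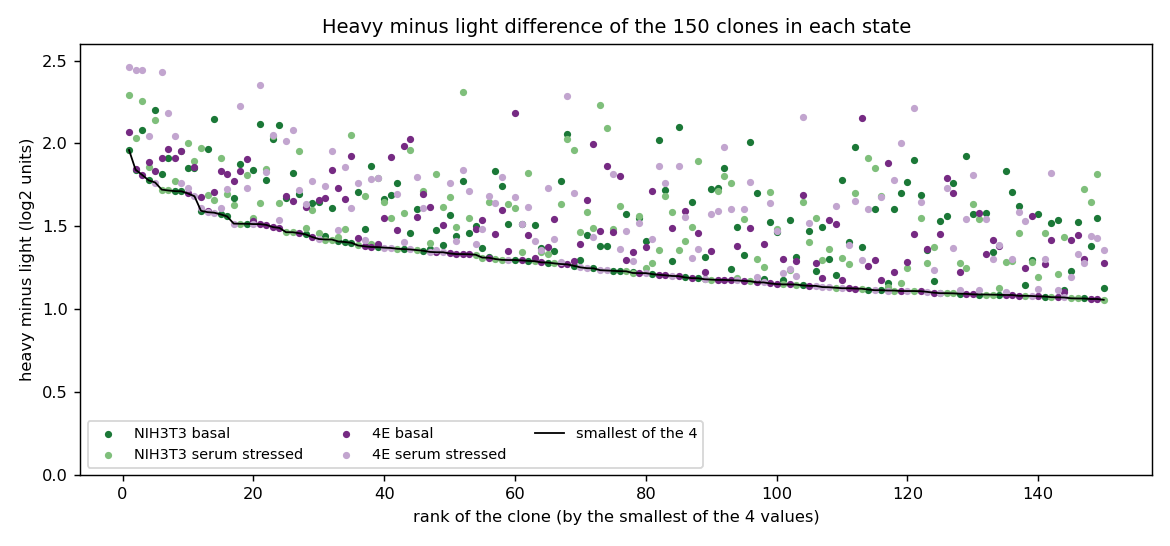
Heavy minus light difference (vertical axis, log2 units on the deposited scale) of the 150 clones in each of the 4 states (coloured points), by rank (horizontal axis); the black line is the smallest of the 4 values, which set the rank. The line falls from 1.96 to 1.06, and the 4 colours are mixed along it.

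In 142 of the 150 clones both heavy samples lay above both light samples in each of the 4 states, and in 89 all 8 heavy samples lay above all 8 light samples. Over all clones these held for 5.1% and 1.64%. In limma's fit all 150 clones had an adjusted p under 0.05 for the averaged difference, where 9.28% of all clones were called with a positive sign. Nothing can be read from these counts, since the same contrast chose the clones.

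The difference came from both fractions. Over the clones the heavy level had a median of 0.897 and the light level one of -0.731, so that the typical clone stood about as far above the array median in the heavy as below it in the light fraction. The heavy mean was above 0 and the light mean below 0 in 111 clones (15.6% of all clones had that arrangement), both were above 0 in 17 and both below 0 in 22. The overall level, the mean of the 8 group means, which the rule did not use, ran from -1.68 to 1.37 with a median of 0.07, against a median of 0.03 over all clones. The quartiles of this level were -0.49 and 0.42 for the 150 clones and -0.22 and 0.24 for all clones. The list thus holds clones on both sides of the array median. It reaches neither end of the range over all clones, -3.85 to 3.68.

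By sample, the median over the clones was 0.928 and 0.771 in NIH3T3 heavy basal, 1.00 and 0.783 in NIH3T3 heavy serum stressed, 0.444 and 0.414 in 4E heavy basal, and 0.75 and 1.23 in 4E heavy serum stressed samples. In the light fraction the same states gave -0.46 and -0.974, -0.474 and -0.834, -1.21 and -0.846, and -0.551 and -0.661. In the heavy fraction both 4E basal samples were lower than the other 6 samples. In the light fraction one 4E basal sample was the lowest of the 8, and the other lay above NIH3T3 basal sample 2 and just below NIH3T3 serum stressed sample 2.

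**Figure D2:**
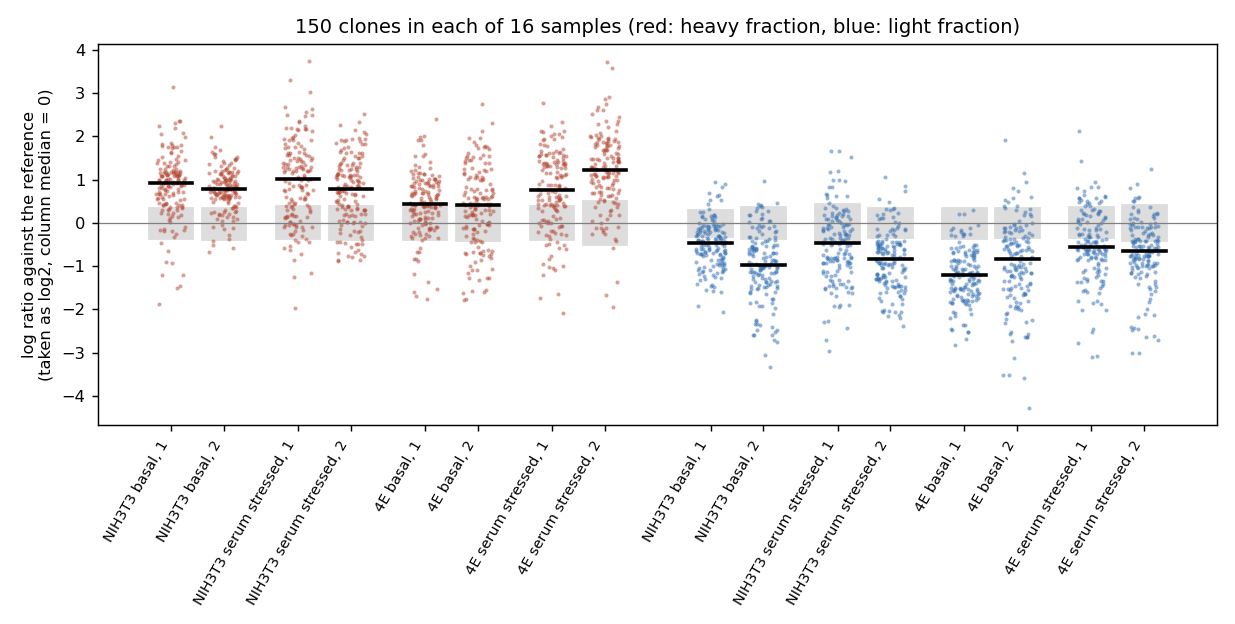
Log ratios against the common reference (vertical axis, taken as log2, column median 0) of the 150 clones (points) in each of the 16 samples, with their median (black line) and the interquartile range of all complete clones (grey box). Medians run from 0.414 to 1.23 in the heavy samples (red) and from -1.21 to -0.46 in the light samples (blue), and the 4E basal pair is the lowest in the heavy fraction.

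The rule was also applied to sample 1 of each group alone, and the 150 clones it gave were read in sample 2, which had no part in the choice; the reverse was done too. The list from sample 1 shared 92 clones with the 150 and had a median heavy minus light difference of 1.48 where it was chosen and 1.40 in sample 2. There, 142 of its 150 clones (94.7%) were positive in all 4 states, as were 16.2% of all clones. The list from sample 2 shared 86 clones with the 150. Its median went from 1.71 to 1.23 in sample 1, where 116 of 150 (77.3%) were positive in all 4 states, beside 14.5% of all clones. In the samples not used, the averaged difference was above 0 for 150 and 139 of the clones of these lists. Samples 1 and 2 of a group may be technical repeats, so these readings need not be independent. They describe the lists chosen on 1 sample of each group, not the 150 clones.

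The fraction took most of what varied between the group means of the 150 clones. Its share of the sum of squares between the 8 means was 82.7% at the median (41.7% to 98.1% over the clones), against 15.7% over all clones, as the rule would have it. After the fraction, serum was the largest term in 64 clones, the interaction of line and serum in 44, and the cell line in 38. The terms that combine fraction with another factor led in 4 clones.

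The serum difference was described in each cell line. In 4E cells the serum stressed minus basal difference, the mean of both fractions, was above 0 in 130 of the 150 clones, with a median of 0.56 (quartiles 0.28 and 0.83), beside 51.3% and a median of 0.02 over all clones. In NIH3T3 cells it was above 0 in 79, with a median of 0.06 (quartiles -0.25 and 0.40), beside 51.9% and 0.02. In 4E cells limma called 24 clones positive and 2 negative (adjusted p under 0.05 over all clones tested), against 3.53% and 2.25% of all clones. It called 0 positive and 1 negative in NIH3T3 (clone H3092G05, at -1.13, a call absent from most fits without 1 sample), against 0.87% and 1.02%, and at an unadjusted p under 0.05 there were 21 of the 150. The NIH3T3 median changed sign with quantile normalization, to -0.04, and without NIH3T3 light basal sample 2 (-0.07), NIH3T3 heavy serum stressed sample 1 (-0.04) or NIH3T3 light serum stressed sample 1 (-0.07).

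The 4E response had a median of 0.60 in the heavy fraction (123 clones above 0) and 0.48 in the light (131 clones above 0). These responses differ by the change of the heavy minus light difference between the serum states of 4E cells. The ranking drew that change towards small values, so the likeness of the fractions is not a finding. Limma called 10 clones positive in the heavy fraction, beside 1.42% of all clones, and 0 in the light, beside 0.0857%, where 32 of the 150 had an unadjusted p under 0.05. The heavy count of 10 fell to 0 without 4E heavy basal sample 2 or 4E heavy serum stressed sample 2, and to 2 without 4E heavy basal sample 1. It was 23 without 4E heavy serum stressed sample 1. It was 5 or 6 without any 1 of the other heavy samples, which are NIH3T3, or of the light samples, except the NIH3T3 light serum stressed samples, without either of which it was 9. Both serum stressed samples lay above both basal samples in each fraction for 53 clones in 4E cells (9.96% of all clones did) and below them for 5 (8.55%). In NIH3T3 cells these were 16 (8.75%) and 9 (7.77%). The ranking bears on these counts too, since they ask for both fractions. Leaving out 1 sample at a time kept the 4E median between 0.40, without sample 2 of 4E heavy serum stressed, and 0.71, without sample 1 of that group. The called count, 26 in both directions together, was 13 without either 4E heavy basal sample or without 4E light basal sample 2, 11 without 4E light basal sample 1 or 4E heavy serum stressed sample 2, and 10 without 4E light serum stressed sample 1. In the lists chosen on 1 sample of each group, the 4E response read in the other sample had a median of 0.14 (87 of 150 above 0, list from sample 1) and 0.41 (115 of 150, list from sample 2). The first is well under the value in the samples of the choice, 0.60. The NIH3T3 response read in the same way had medians of -0.05 and 0.23.

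**Figure D3:**
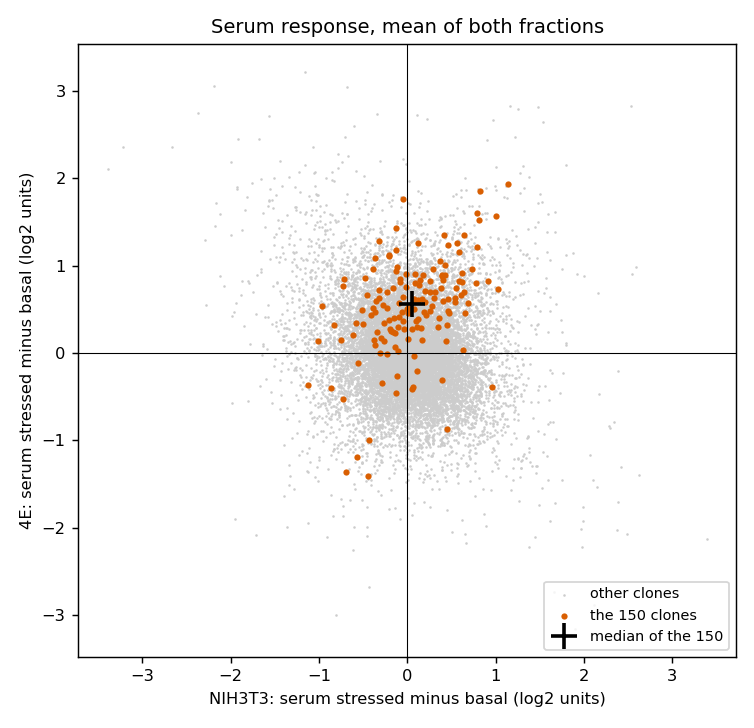
Serum stressed minus basal difference (log2 units, mean of both fractions) in NIH3T3 (horizontal axis) and 4E cells (vertical axis) for the 150 clones (orange), their median (black cross) and all other complete clones (grey). The cross stands at 0.06 on the horizontal and 0.56 on the vertical axis, and 130 of the 150 orange points lie above the horizontal line at 0.

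Averaged over lines and fractions, the serum difference was called for 16 clones with a positive and 2 with a negative sign, beside 1.71% and 1.23% of all clones. All 16 positive ones were also among the 24 called in 4E cells alone, and 1.16% of all clones were called positive in both. The 4E difference is a part of the averaged one, so overlap is in part built in. The balance of signs over all clones depended on scaling. Of the averaged serum calls 58.3% were positive, and 49.9% with quantile normalization. In 4E cells these shares were 61.1% and 56%, and in NIH3T3 cells 46.2% and 38.8%. Since the rule held the averaged serum difference below F, larger serum effects could not enter the list, and the count is a description. It was 10 without NIH3T3 heavy basal sample 1, NIH3T3 light basal sample 2, 4E light basal sample 1, NIH3T3 heavy serum stressed sample 1 or 4E light serum stressed sample 1, and 11 without 4E heavy basal sample 1, 4E light basal sample 2 or NIH3T3 light serum stressed sample 1.

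Clone H3144F06 had the largest positive serum difference of the list. Its serum stressed samples stood at 2.35 and 1.92 (NIH3T3 heavy), 0.35 and -0.12 (NIH3T3 light), 1.57 and 3.71 (4E heavy) and 0.81 and -0.11 (4E light). Its basal samples stood at 1.07 and 0.94, -1.25 and -0.85, 0.54 and -0.14, and -0.64 and -1.50 in the same order. Within each line and fraction both serum stressed samples lay above both basal samples, and the averaged difference was 1.54 (SE 0.28, adjusted p = 0.00873 by limma). The highest single value, 3.71, came from the sample that stood apart, and without it the difference was 1.27.

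For clone H3121H09 the difference was 1.34 (SE 0.20, adjusted p = 0.00364 by limma), with 0.83 in NIH3T3 and 1.86 in 4E cells. On the negative side, clone H3021F12, eighth in rank, stood at 0.86 and 0.81 (NIH3T3 heavy), -0.30 and -1.45 (NIH3T3 light), 1.00 and 0.27 (4E heavy) and -1.41 and -1.15 (4E light) in basal samples. In serum stressed samples it stood at 0.01 and 0.32, -1.34 and -1.87, -0.94 and -0.37, and -2.78 and -2.63. The states overlapped in NIH3T3 light samples but not in the other pairs, and the difference was -1.03 (SE 0.20, adjusted p = 0.013 by limma). Its heavy minus light difference stayed between 1.71 and 2.04 in all 4 states while its level moved. Clone H3092G05 differed by -0.75 (SE 0.19, adjusted p = 0.0486 by limma), a call that was lost in 12 of the 16 fits without 1 sample, with adjusted p up to 0.121.

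The cell line difference was described in each serum state. In basal cells the 4E minus NIH3T3 difference, the mean of both fractions, was below 0 in 126 of the 150 clones, with a median of -0.37 (quartiles -0.64 and -0.12) beside 0.01 over all clones. In serum stressed cells it was above 0 in 90, with a median of 0.13 (quartiles -0.14 and 0.42) beside 0.01. The lists chosen on 1 sample of each group gave other values in the samples not used for the choice. The list from sample 1, read in sample 2, had a basal median of -0.04 with 78 of 150 clones below 0, and a serum stressed median of 0.21. The list from sample 2, read in sample 1, had a basal median of -0.43 with 126 of 150 below 0, and a serum stressed median of -0.14. The basal shift was thus near 0 in one reading, and the serum stressed median changed sign in the other. Without 1 sample the basal median ran from -0.54 (without NIH3T3 light basal sample 2) to -0.23 (without NIH3T3 light basal sample 1), and the serum stressed median from 0.01 (without 4E heavy serum stressed sample 2) to 0.23. In basal cells both 4E samples lay below both NIH3T3 samples in each fraction for 39 clones (7.83% of all clones) and above them for 4 (8.28%). In serum stressed cells they lay below for 10 (8.44%) and above for 21 (9.16%). Here too the ranking bears on the counts, since they ask for both fractions. Limma called 0 clones positive and 8 negative in basal cells, beside 1.02% and 1.34% of all clones, and 2 positive and 5 negative in serum stressed cells, beside 2.87% and 2.27%. The basal count was 2 without NIH3T3 light basal sample 1 or 4E light basal sample 1, 3 without either NIH3T3 heavy basal sample or 4E heavy basal sample 2, and 4 without 4E heavy basal sample 1. It was 5 without 4E light basal sample 2 or either 4E light serum stressed sample. The serum stressed count was 1 without NIH3T3 light serum stressed sample 1, 3 without NIH3T3 heavy serum stressed sample 1 or 4E light serum stressed sample 1, and 4 without 4E heavy serum stressed sample 2 or 4E light serum stressed sample 2. It was 11 without 4E heavy serum stressed sample 1.

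Taking the mean level of each state over the fractions, 4E basal was the lowest of the 4 states in 105 clones, beside 24.4% of all clones. 4E serum stressed was the highest in 70 clones, beside 29.6%. These states also enter the serum difference of 4E cells and the cell line differences above. The counts therefore overlap with those comparisons and are not separate findings. By level class, the basal cell line difference was below 0 in 94 of the 111 clones that cross 0 between the fractions, in 21 of the 22 below 0 in both and in 11 of the 17 above 0 in both.

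Averaged over serum and fraction, the cell line difference had a median of -0.11 and ran from -1.64 to 0.81. The median was -0.05 without NIH3T3 light basal sample 1 or NIH3T3 light serum stressed sample 1, and -0.07 without 4E light basal sample 1 or 4E light serum stressed sample 2. It was -0.18 without NIH3T3 light basal sample 2, 4E heavy serum stressed sample 2 or NIH3T3 light serum stressed sample 2, and -0.17 without 4E light basal sample 2. Limma called 9 clones, all negative, against 1.25% of all clones called positive and 1.36% negative. With 1 sample left out, 4 clones were called without NIH3T3 heavy basal sample 1, 4E heavy basal sample 2, NIH3T3 light basal sample 1, NIH3T3 heavy serum stressed sample 1, NIH3T3 light serum stressed sample 1 or 4E light serum stressed sample 1. There were 5 without NIH3T3 heavy basal sample 2, either 4E light basal sample or 4E heavy serum stressed sample 1. The rule held this difference too below F.

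Clone H3014A12 had the most negative cell line difference. In NIH3T3 cells it stood at 1.75 and 0.70 (heavy basal), 2.20 and 2.33 (heavy serum stressed), -0.12 and 0.28 (light basal) and 1.00 and 0.23 (light serum stressed). In 4E cells the same groups gave -0.25 and -0.46, 1.18 and 1.01, -2.16 and -1.92, and -0.72 and -1.41. Every 4E sample lay below both NIH3T3 samples of its fraction and serum state, and the difference was -1.64 (SE 0.20, adjusted p = 0.000308 by limma). In the same clone the heavy minus light difference ran from 1.14 in NIH3T3 basal to 2.16 in 4E serum stressed cells.

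Clone H3015E11 differed by -1.59 between the lines (SE 0.24, adjusted p = 0.00205 by limma), with -1.11 in basal and -2.07 in serum stressed cells. No clone of the list was called with a positive cell line difference. The positive ones with the smallest p were H3059G11, at 0.81 (SE 0.22, adjusted p = 0.0641 by limma), and H3158H02, at 0.57 (SE 0.18, adjusted p = 0.132 by limma). The first passed without 4E light basal sample 1 (adjusted p = 0.0485 by limma) and without 4E light serum stressed sample 2 (adjusted p = 0.0216 by limma).

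The difference between the serum responses of the lines, 4E minus NIH3T3, is the term that the rule did not use. It was above 0 in 126 of the 150 clones, with a median of 0.48, beside 50.2% and 0.00 over all clones. Limma called 7 clones (4.67% of the list), all positive, while 4.65% of all clones were called, 2.64% positive and 2.01% negative. The share called in the list was therefore at the background. In the lists chosen on 1 sample of each group, the 2 responses lay closer together when read in the other sample. Their medians were 0.14 in 4E and -0.05 in NIH3T3 (list from sample 1), and 0.41 and 0.23 (list from sample 2). This term coincides with the split of the samples by their control rows, so the data do not separate them: they cannot be told apart.

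Clone H3142A07 had the largest such difference, 1.81 (SE 0.40, adjusted p = 0.0197 by limma). In 4E cells it went from -0.68 and -1.07 in basal to 0.56 and 1.15 in serum stressed heavy samples, and from -2.70 and -2.63 to -0.85 and -0.90 in light samples. In NIH3T3 cells it went from -0.14 and 0.58 to 0.29 and -0.41 in heavy samples, and from -0.93 and -1.75 to -0.81 and -1.51 in light samples. Basal and serum stressed samples did not overlap in either fraction of 4E cells and overlapped in both of NIH3T3. It had equal columns in 3 of its samples, and its adjusted p was 0.0523 by limma without 4E heavy basal sample 2 or without NIH3T3 light basal sample 1.

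Clone H3039G04 differed by 1.60 (SE 0.33, adjusted p = 0.0135 by limma), with a response of 1.29 in 4E and -0.32 in NIH3T3 cells, and passed in every fit without 1 sample. In 4E cells it went from -0.10 and -0.71 to 0.64 and 1.31 in heavy and from -1.69 and -2.03 to -0.73 and -0.60 in light samples, with no overlap in either fraction. The negative differences with the smallest p did not pass: H3040C04 stood at -1.32 (SE 0.39, adjusted p = 0.0665 by limma) and H3147B06 at -1.35 (SE 0.44, adjusted p = 0.0947 by limma). Without 4E light serum stressed sample 2 the first passed (adjusted p = 0.0189 by limma). In place of 7 clones, limma called 2 without 4E heavy basal sample 2 or NIH3T3 light basal sample 1. There were 3 without NIH3T3 heavy basal sample 1, 4E light basal sample 1, NIH3T3 heavy serum stressed sample 2 or 4E light serum stressed sample 1. There were 4 without 4E light basal sample 2, NIH3T3 heavy serum stressed sample 1, 4E heavy serum stressed sample 2, either NIH3T3 light serum stressed sample or 4E light serum stressed sample 2.

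Within the sides of the split, cell line and serum change together. The difference of 4E serum stressed from NIH3T3 basal cells had a median of 0.25 over the 150 clones, with 0 called positive and 5 negative beside 1.81% and 1.33% of all clones. That of 4E basal from NIH3T3 serum stressed cells had a median of -0.41, with 0 positive and 11 negative beside 0.949% and 1.52%. With quantile normalization the positive share of all calls in the first comparison was 47.1%, against 57.8%. The first count was 13 without 4E heavy serum stressed sample 1. The second was 7 without 4E heavy basal sample 1, and 5 without 4E light basal sample 1, NIH3T3 heavy serum stressed sample 1 or NIH3T3 light serum stressed sample 1. The heavy minus light difference had a median of 1.5 within the first side and 1.45 within the second.

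The heavy minus light difference itself did not pass for a change with cell line, with serum or with both in any of the 150 clones. None had even an unadjusted p under 0.05 by limma for the 3 terms, where 386, 361 and 842 of all clones did, and 0% of all clones were called. The differences of the difference lay between -0.52 and 0.53 for cell line and between -0.55 and 0.57 for serum. A list ranked by its smallest single-state value is drawn towards small values of these terms, so the values and counts are a description only. With each of the 32 columns taken as a replicate, 1 clone of the list passed for the term of all 3 factors. That setting counts the columns of a pair as separate samples, which they do not appear to be.

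As a set, the 150 clones had 2 features that the rule did not use. The first was how the columns of a sample agreed. In 103 clones (19.9% of all clones) no sample had equal values in both columns, and the median number of samples with equal columns was 0, against 2 over all clones. By sample 0.667% to 8% of the 150 clones had equal columns, beside 8.54% to 23.8% of all clones. In 4E light basal sample 2 the shares were close, at 8% and 8.54%. Where columns differed the median gap was 0.102 to 0.156 in the list and 0.169 to 0.24 over all clones. Other clones with a large heavy minus light difference were not compared. Between the samples of a group, by contrast, the residual SD was 0.40 at the median of the list and 0.39 over all clones.

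**Figure D4:**
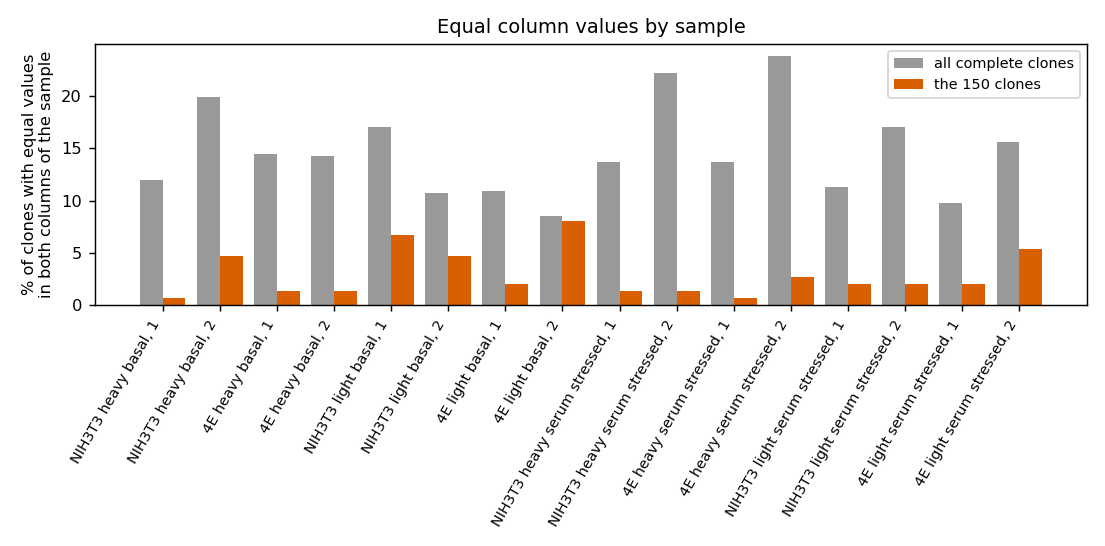
Percentage of clones with equal values in both deposited columns of a sample (vertical axis), for all 15169 complete clones (grey) and the 150 clones (orange), in each of the 16 samples. The orange bars lie between 0.667% and 8%, each below the grey bar of its sample.

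The second was that they moved together between the samples of a group. Deviations from the group means had a mean pairwise correlation of 0.26 across the 16 samples among the 150 clones and of 0.00 among all clones. The samples are shared by all clones and the deviations of a group sum to 0, so this is a description. All clones hold both signs of the heavy minus light difference and the list only the positive one. The 0.00 is therefore not a like comparison. The median over the list differed between the samples of a group by -0.52 (4E heavy serum stressed, sample 1 minus sample 2) to 0.44 (NIH3T3 light basal). Over all clones the median differed by -0.04 to 0.04, but the centring of each column holds it near 0. Since the clones of the list moved together, a count that shares a direction, such as the 130 of 150 above, does not count independent measurements.

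By plate number the list was uneven. It held clones of 87 of the 159 plates, with 51 plates giving 1 clone each and 7 giving over 3. Plate 26 gave the most, 7 clones. Plates 1 to 20 gave 34 clones (1.78% of their complete clones), plates 21 to 40 gave 38 (1.99%), and the blocks of 20 plates from 61 to 120 gave 8 to 11 each (0.42% to 0.574%). Plates 1 to 40, a boundary chosen after the values were seen, held 48% of the list and 25.2% of all complete clones. Over all clones, positive heavy minus light calls were also more frequent on these plates, at 13.6% and 16%, than in the other blocks, at 4.96% to 10.4%. Negative calls stood at 11.3% and 8.17% there, within the 5.38% to 12.3% of the other blocks. Well rows gave 15 to 22 clones each and well columns 9 to 19, and 6 pairs of the list lay in adjacent wells. Which plates share a print tip or a place on the array was not analysed here, and whether clones of 1 plate derive from 1 gene is not known without gene names.

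**Figure D5:**
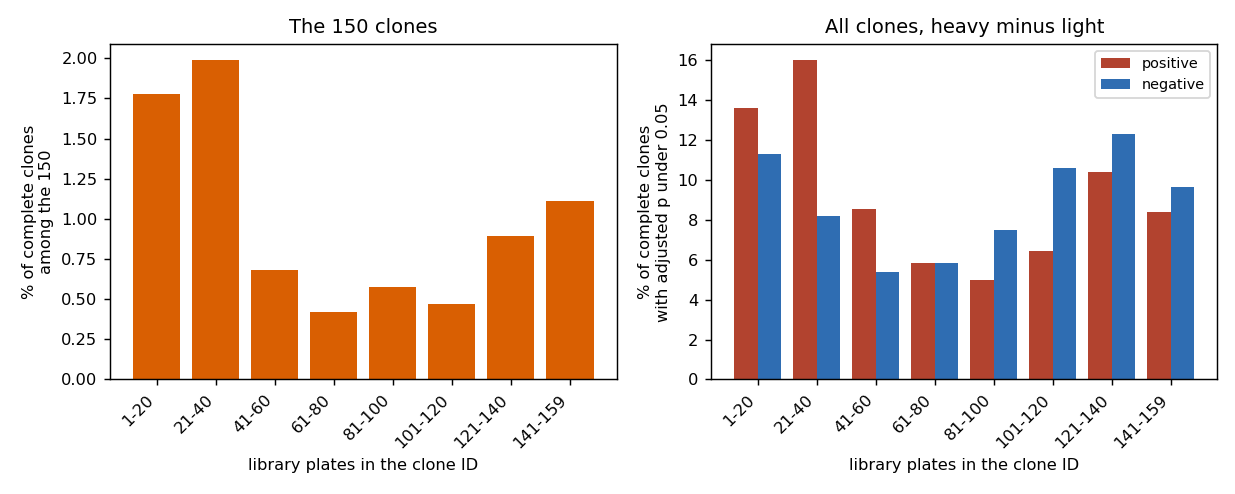
Left, percentage of the complete clones of each block of library plates (horizontal axis) that are among the 150; right, percentage of all complete clones of the block with adjusted p under 0.05 for the averaged heavy minus light difference, positive in red and negative in blue. The first 2 blocks give 1.78% and 1.99% on the left and hold the highest share of positive calls on the right.

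The serum behaviour differed little between the plate blocks in 4E cells, with medians of 0.52 for the 72 clones of plates 1 to 40 and 0.59 for the others. In NIH3T3 cells the medians were -0.09 and 0.14. The heavy minus light difference had a median of 1.49 in both.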

How the data were processed

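The authors deposited 1 table of log ratios (here taken as log2) of polysome RNA against a common reference, which per the labels came from 2-colour arrays. Log base, centring, direction of the ratio, scanner, background correction and normalization have no statement in the sources used here. The largest absolute value was 11.3, column medians lay between -0.146 and 0.177, and no 2 columns correlated below 0.0244. Signal over background is not used here.

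Of 15249 rows, 2 were controls, and 78 of the 15247 clones had a missing value and were left out. Columns were centred on their medians over complete clones, and the columns of a pair were averaged (equal within 1e-06 counts as equal). One limma fit (version 3.58.1, R 4.3.3) of 8 group means over 16 samples had 8 residual and 6.52 prior degrees of freedom, with Benjamini-Hochberg adjustment over 15169 clones per contrast and a threshold of 0.05. The fit and the rule were tested on simulated data.

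The members, contrasts and tests were chosen with earlier results of these data known. Named clones are the first 2 in rank and, for each averaged term, the 2 largest called in each direction or, where none passed, the 2 with the smallest p; clones outside this rule were not named. The gene lists and markers planned for named genes could not be run. Alternatives were other centring, scaling, column choice, weights, a replicate block and leaving out each sample.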

Additional observations from a re-analysis of the deposited data

Results flagged for a closer look

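By a test of the difference itself, the serum response differed between the cell lines for 7 of the 150 clones (4.67%). Over all clones 4.65% were called, so the share in the list was at the background. The largest of the 7 were clone H3142A07, at 1.81, and clone H3039G04, at 1.60 (4E minus NIH3T3 response, log2 units on the deposited scale). The term and the difference in control rows between samples cannot be told apart. Groups hold 2 samples, so no sample was tested for lying far from the others.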

How the results depend on the processing

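All 150 clones were called for heavy minus light in each other setting except equal median absolute deviation (149) and the lower column of each pair (148). The rule chose the clones on this contrast, so its counts here, also those without 1 sample, carry no support. One setting, centring after averaging the columns, was chosen after seeing the data. Counts for the cell line (9), serum (18) and cell line by serum (7) moved by over 1.5 times as follows. With each of the 32 columns as a replicate they were 49, 78 and 62, but that setting counts each sample more than once. With the lower column of each pair serum gave 10, and with the replicate block the cell line gave 5 and serum 11. Leaving out 1 sample gave 147 to 150 for heavy minus light, 4 to 10 for the cell line, 10 to 24 for serum and 2 to 8 for cell line by serum. Samples of the same number shared only a number: their deviations correlated at -0.329 to 0.356 over the 28 pairs of groups, so the block says nothing of pairing. No named clone reversed in its 25 alternatives. Over the 14 named results, however, a call was lost in 21 alternatives, gained in 7 and unchanged in 322. The rule gave 130 to 147 of the same clones under other centring, scaling or column choice, 103 when clones with equal columns were left out, and 92 or 86 from 1 sample of each group. Lists of 100 and 200 clones had 12% called for serum, as did the 150. With 2 samples a group, the number of arrays limits the precision.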
